A study of Mus musculus with 2 samples.

Results

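Here 10 genes of the Notch pathway were followed across the cell types of the mouse liver. They comprised 4 ligands (Dll1, Dll4, Jag1 and Jag2), 4 receptors (Notch1, Notch2, Notch3 and Notch4) and 2 target genes (Hes1 and Hey1). The genes were chosen by name and were 10 of the 21722 genes listed in either library, and each of the 10 was present in both. Single cells other than hepatocytes were prepared from 1 mouse per condition by collagenase perfusion of the liver, removal of hepatocytes by slow centrifugation, and droplet capture of the 3' ends of mRNA. The normal library (title Q, described as the quiescent state) came from a male C57BL/6 mouse that received olive oil, and the fibrosis library (title F) from a male C57BL/6 mouse that received carbon tetrachloride (CCl4), a hepatotoxin that scars the liver, at 15% in oil and 0.6 µl per g of body weight. Both mice were 8 weeks old and were injected intraperitoneally 2 times a week for 6 weeks, and the cells were taken 48 hours after the last injection of CCl4. With 1 mouse per condition there was no replicate of either condition, so every contrast below sets 2 single mice side by side and no test was possible.

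Notch ligands sit on the surface of a signalling cell and bind Notch receptors on its neighbour. Binding lets proteases of the Adam family and then gamma-secretase cut the receptor, and the freed intracellular part enters the nucleus, joins the DNA-binding protein Rbpj with Mastermind-like partners, and switches on genes such as the Hes and Hey repressors. Fringe enzymes add sugars to the receptors and shift their response between Delta-like and Jagged ligands. In the liver the pathway is known for bile duct formation, which depends on Jag1 and Notch2, for arterial identity of vessels, in which Dll4, Notch1 and Notch4 act, and for Notch3 in the contractile cells that wrap vessels.

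The normal library held 8130 cells with 44062632 unique molecular identifiers (UMIs, each standing for 1 captured mRNA molecule) and the fibrosis library 6437 cells with 53288463 UMIs. After cells with 10% or more mitochondrial UMIs were left out, 7471 and 6132 cells remained, with medians of 4226 and 5775.5 UMIs per cell. Classes were built by clustering without the Notch genes and were named from marker lists, with the ending -like. Outside the named classes were kept 1676 normal and 519 fibrotic cells. They include 106 normal myeloid cells in a cluster that took the Neutrophil-like name, and mesenchymal cells in clusters that took the Monocyte/macrophage-like name. Of the 1865 normal and 1009 fibrotic endothelial cells outside the vessel and lymphatic classes, 586 and 496 took no zone name. Against all other cells of the library, most of them not endothelial, all 6 zone 1-like and all 8 zone 2/3-like markers were raised in their class. So were all 10 central vein-like markers, and 12 of 14 portal vessel-like markers in the normal library and 11 of 14 in fibrosis. The classes were named from these same lists, so this describes the naming. Against other endothelial cells, between 5 and 8 of 8 markers were raised in the normal zone 2/3-like sub-clusters. In the fibrotic portal vessel-like sub-clusters 9, 10 and 14 of 14 were raised. A fibrotic portal vessel-like sub-cluster of 100 cells took its name only from its top 50 genes, while its top 10 held 3 erythroid markers (Hba-a1, Hba-a2 and Hbb-bt) and no portal marker, so portal vessel-like values are also given without it. The libraries shared 15 cell barcodes. Scrublet called 1 cell in each library a doublet, which is too few for the call to be usable, so possible doublets remained in every class.

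Levels are given as UMIs of a gene per 10000 UMIs of its class, with an exact 95% Poisson interval in square brackets, and ratios carry an exact conditional 95% interval. These intervals cover counting error only and not the variation between animals. The scale is relative to each class's own total, so a level also depends on the other RNA of the class. Levels of a gene are set side by side between classes with that limit. For some ratios UMIs per cell gave another direction, as stated below. Levels of different genes are not compared here. Endothelial markers were also counted in other classes, and whether free RNA, doublets or mixed clusters put them there was not tested. The summed level of 8 endothelial markers, as a percentage of that in all endothelial cells of the same library, was 14.8% in normal and 20.1% in fibrotic lymphoid cells (the joined NK/T-cell-like and B-cell-like classes), but 60.9% in the fibrotic against 12.7% in the normal Erythroid-like class. Lymphoid levels of Dll4, Jag1, Jag2, Notch3, Notch4 and Hey1 are therefore set beside the values below, and a level at or under them was read as background. The fibrotic lymphoid level of Hey1 is a doubtful background, as given below.

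In the GRCm38 annotation all 10 are protein-coding genes. Dll4 lies on chromosome 2 at 119325784-119335962 on the plus strand, Jag1 on chromosome 2 at 137081456-137116644 on the minus strand, and Notch1 on chromosome 2 at 26457903-26516663 on the minus strand. Dll1 (15367354-15376872, minus), Notch3 (32120820-32166852, minus) and Notch4 (34564268-34588503, plus) lie on chromosome 17. Jag2 lies on chromosome 12 (112907819-112929776, minus), Notch2 and Hey1 on chromosome 3 (98013527-98150361, plus, and 8663359-8667256, minus), and Hes1 on chromosome 16 (30064384-30067796, plus).

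Promoter windows from RefSeq (GRCm38.p6; 250 bases before to 50 after a transcription start) were found for 8 of the 10 genes, in 9 windows, and not for Hes1 or Hey1. The words TGGGAA and CACGCG were searched on both strands (reverse TTCCCA and CGCGTG), the former being the core bound by Rbpj and the latter read by Hes and Hey repressors. TGGGAA occurred in 25.6% of all 32851 windows and in none of the 8 genes, while CACGCG occurred in 9.27% of all windows and in 5 of the 8 genes (Dll1, Dll4, Jag1, Jag2 and Notch2). Of the 43 other listed genes of the pathway 34 had a window, and 13 of these held TGGGAA and 8 held CACGCG. Shares of windows and of genes are unlike measures, and an excess of either word was not tested. A match is a description of these letters and does not show that a protein binds. The windows of Dll4 and Jag1, the ligands past 2-fold between zones, are shown together with that of Lfng, a Fringe gene that ran the opposite way along the sinusoid. They lie at chr2:119325534-119325833 (plus), chr2:137116471-137116770 (minus) and chr5:140607091-140607390 (plus), and capitals mark CACGCG or CGCGTG in the first pair and TGGGAA or TTCCCA in Lfng, whose window also holds a CGCGTG, left in lower case, that does not overlap the marked words.
Dll4: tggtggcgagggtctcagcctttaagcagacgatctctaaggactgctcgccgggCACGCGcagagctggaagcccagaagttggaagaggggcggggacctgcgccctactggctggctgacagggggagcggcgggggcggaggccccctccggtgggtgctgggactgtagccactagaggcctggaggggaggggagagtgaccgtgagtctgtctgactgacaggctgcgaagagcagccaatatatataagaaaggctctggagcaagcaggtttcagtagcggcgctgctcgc
Jag1: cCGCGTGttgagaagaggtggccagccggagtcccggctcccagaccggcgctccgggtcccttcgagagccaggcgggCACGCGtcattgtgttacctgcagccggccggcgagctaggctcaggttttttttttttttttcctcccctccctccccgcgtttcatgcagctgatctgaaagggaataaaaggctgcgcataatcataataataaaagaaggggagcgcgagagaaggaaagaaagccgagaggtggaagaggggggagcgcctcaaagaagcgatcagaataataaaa
Lfng: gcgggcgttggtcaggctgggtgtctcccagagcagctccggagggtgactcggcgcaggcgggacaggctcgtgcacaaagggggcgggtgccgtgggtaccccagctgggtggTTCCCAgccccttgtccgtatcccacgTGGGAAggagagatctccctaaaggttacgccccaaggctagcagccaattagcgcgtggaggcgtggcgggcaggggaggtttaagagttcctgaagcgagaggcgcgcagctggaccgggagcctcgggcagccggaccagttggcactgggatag
The word starts at base 56 of the Dll4 window, at bases 2 and 80 of the Jag1 window, and at bases 116 and 143 of the Lfng window, counted from the 5' end.

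Dll4, the Delta-like ligand of arteries and sprouting vessels, was highest in portal vessel-like and zone 1-like endothelium of both libraries, and among endothelial classes its level was lower with distance from the portal side of the lobule. In the normal library Dll4 stood at 3.22 [3.00, 3.45] in portal vessel-like cells, 2.64 [2.42, 2.87] in zone 1-like (periportal) sinusoidal cells, 1.18 [1.10, 1.27] in zone 2/3-like (midlobular and pericentral) cells and 0.190 [0.116, 0.293] in central vein-like cells. In the fibrosis library the same classes held 2.37 [2.17, 2.59], 1.90 [1.73, 2.09], 0.599 [0.497, 0.715] and 0.184 [0.131, 0.250], with 2.53 in portal vessel-like cells without the erythroid-led sub-cluster. The first 3 classes had separate intervals in both libraries and kept the same order. The central vein-like levels lay below the lymphoid levels of 0.246 and 0.304 and were read as background. In fibrosis the zone 2/3-like interval also overlapped those of Erythroid-like (0.802 [0.662, 0.964]), pDC-like (0.629 [0.50, 0.781]) and Neutrophil-like cells (0.618 [0.414, 0.887]), whose endothelial marker levels were 60.9%, 43.0% and 36.8%.

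Zone 1-like cells exceeded zone 2/3-like cells in Dll4 by 2.23-fold [1.99, 2.50] in the normal library and 3.18-fold [2.60, 3.91] in fibrosis. Dll4 was detected in 73.0% of normal zone 1-like and 44.0% of normal zone 2/3-like cells, and in 23.8% and 11.2% of them once each cell was thinned to 1000 UMIs. The thinned share in lymphoid cells was 1.70% (median depths 5664, 6142 and 3165 UMIs per cell in the 3 classes). In fibrosis the thinned shares were 17.2% in zone 1-like, 5.56% in zone 2/3-like and 3.31% in lymphoid cells (median depths 8146, 7455.5 and 2376 UMIs). The shares of cells and the summed levels therefore gave the same order. The zone 2/3-like class was made up differently in the 2 libraries. The normal class joined 5 sub-clusters, in which Dll4 was 2.29 [2.03, 2.58] in the 181 cells led by Esm1, Ctgf and Abcc9 (Jag1 0.126 [0.0703, 0.207]), 1.08 and 1.01 in those of 332 and 217 cells, and 0.289 [0.171, 0.456] and 0.666 [0.480, 0.900] in those of 104 and 100 cells with Kit among their top genes. The fibrotic class was 1 sub-cluster with Kit and Il13ra2 among its top genes, and the fibrotic cells led by Esm1 and Ctgf (254 cells, Dll4 1.15 [1.03, 1.29]) took no zone name. The zone 1-like to zone 2/3-like steps of the 2 libraries therefore rest on classes of different make-up and are not compared with each other.

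Jag1, the Jagged ligand of bile duct formation, had a different distribution, with a portal vessel peak and lower levels in the sinusoid and the central vein. The normal levels were 4.45 [4.19, 4.73] in portal vessel-like, 0.931 [0.802, 1.08] in zone 1-like, 0.140 [0.112, 0.174] in zone 2/3-like and 1.09 [0.902, 1.31] in central vein-like cells. The fibrotic levels were 3.84 [3.59, 4.11], 0.168 [0.120, 0.229], 0.294 [0.225, 0.379] and 0.556 [0.461, 0.664]. Lymphoid cells held 0.168 and 0.235, so the normal zone 2/3-like and the fibrotic zone 1-like level were at or under background and the fibrotic zone 2/3-like interval overlapped it. The normal zone 1-like and central vein-like intervals overlapped, and the lowest normal level was that of zone 2/3-like cells. Outside the endothelium Jag1 was highest in Cholangiocyte-like cells, followed in the normal library by HSC/MF-like cells (hepatic stellate cells and myofibroblasts) at 0.681 [0.460, 0.972]. In fibrosis the HSC/MF-like level of 0.686 [0.558, 0.834] overlapped those of Erythroid-like (0.697 [0.566, 0.848]) and pDC-like cells (plasmacytoid dendritic cells, 0.675 [0.542, 0.832]), whose endothelial marker levels were 60.9% and 43.0% against 5.63% in HSC/MF-like cells.

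**Figure D1:**
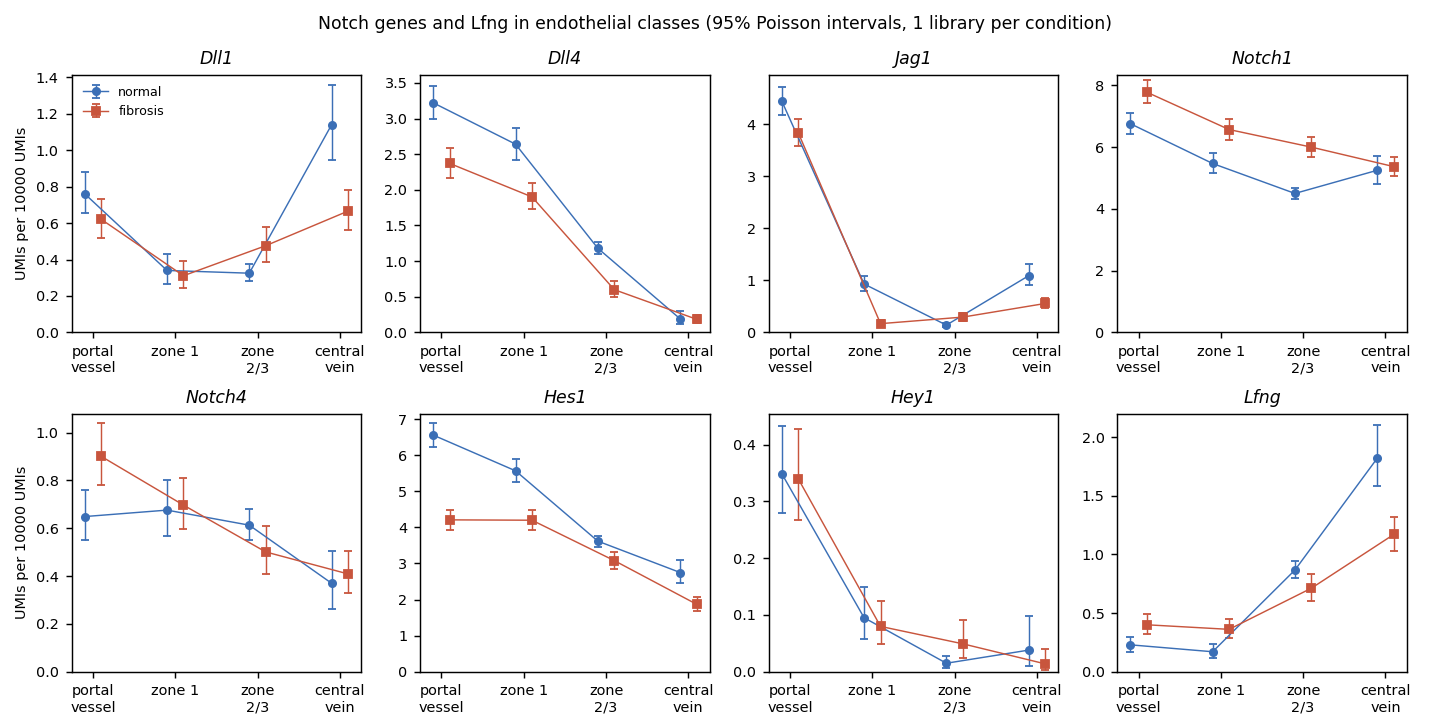
Levels of Notch genes and of Lfng (UMIs per 10000 UMIs of the class, linear axes from 0) in portal vessel-like, zone 1-like, zone 2/3-like and central vein-like cells, as points per library with 95% Poisson intervals. Dll4 runs down from 3.22 to 0.190 in the normal library, Jag1 is lowest in normal zone 2/3-like and fibrotic zone 1-like cells, and Lfng runs the other way, from 0.229 to 1.82.

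Dll1, the Delta-like ligand known from lymphocyte niches, was highest in the large vessels, but in fibrosis they could not be separated from zone 2/3-like cells. Its normal level was 1.14 [0.945, 1.36] in central vein-like and 0.761 [0.655, 0.880] in portal vessel-like cells, against 0.340 [0.264, 0.432] and 0.325 [0.282, 0.374] in the sinusoidal zone 1-like and zone 2/3-like classes. The sinusoidal pair had overlapping intervals. In fibrosis the 2 vessel classes overlapped at 0.666 [0.562, 0.784] and 0.621 [0.520, 0.734]. Both also overlapped zone 2/3-like cells at 0.476 [0.386, 0.581], while zone 1-like cells stood at 0.311 [0.244, 0.390]. Among classes that served as background, Erythroid-like cells stood at 0.0401 and 0.359, Neutrophil-like cells at 0.200 and 0.234 and fibrotic Hepatocyte-like cells at 0.0616. The fibrotic Erythroid-like interval [0.267, 0.472] overlapped those of both sinusoidal classes, in a class with an endothelial marker level of 60.9%.

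Jag2, the other Jagged ligand, was rare throughout, with 78 UMIs in all normal and 130 in all fibrotic cells. Its level was highest in cDC1-like cells, the type 1 conventional dendritic cells, at 0.141 [0.0773, 0.237] and 0.123 [0.0493, 0.252]. Cholangiocyte-like cells followed at 0.0705 [0.0442, 0.107] and 0.0833 [0.0466, 0.137] and portal vessel-like cells at 0.0374 [0.0171, 0.0711] and 0.0735 [0.0420, 0.119]. These 3 classes had overlapping neighbours in both libraries, and the lymphoid levels were 0.00510 and 0.0250. Jag2 was found in 12 of 99 normal and 7 of 60 fibrotic cDC1-like cells, and after thinning in 3.03% and in 0 of 60, so its share was not detectable at 1000 UMIs in the latter, where the exact binomial interval reached 5.96%.

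Notch1, the receptor most associated with endothelium, was broadly present in the endothelial classes and varied little between them. Normal levels were 6.76 [6.43, 7.09] in portal vessel-like, 5.47 [5.15, 5.81] in zone 1-like, 4.50 [4.33, 4.67] in zone 2/3-like and 5.25 [4.82, 5.71] in central vein-like cells. Fibrotic levels were 7.78 [7.42, 8.16], 6.57 [6.24, 6.90], 6.00 [5.67, 6.34] and 5.37 [5.07, 5.69]. The highest and lowest of the 4 classes therefore differed by less than 2-fold in each library. In the normal library the next levels were 2.81 [2.41, 3.27] in Neutrophil-like, 2.67 [2.42, 2.94] in pDC-like and 2.41 [1.97, 2.91] in HSC/MF-like cells, whose intervals overlapped. Erythroid-like cells held 0.642 in the normal library and 4.26 in fibrosis, moving with their endothelial marker level, and the part of endothelial RNA in the Neutrophil-like and pDC-like values was not tested (their endothelial marker levels were 28.6% and 22.7%).

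Notch4, an endothelial receptor, had its highest levels in endothelial classes in both libraries. The cDC1-like interval overlapped that of every endothelial class in the normal library, and those of zone 2/3-like and central vein-like cells in fibrosis. It stood between 0.370 [0.263, 0.506] in central vein-like and 0.676 [0.567, 0.80] in zone 1-like cells of the normal library, where portal vessel-like, zone 1-like and zone 2/3-like cells overlapped. In fibrosis it ran from 0.901 [0.779, 1.04] in portal vessel-like to 0.409 [0.328, 0.503] in central vein-like cells. In cDC1-like cells Notch4 was 0.495 [0.366, 0.654] and 0.350 [0.214, 0.541], compared with 0.0969 and 0.147 in lymphoid cells. The endothelial level of Notch4 scaled down to the endothelial markers of cDC1-like cells was 0.0171 and 0.0352. Neutrophil-like cells held 0.266 [0.152, 0.433] and 0.319 [0.179, 0.527], overlapping the cDC1-like intervals, and fibrotic Erythroid-like cells 0.303 [0.219, 0.408]. Those classes had endothelial marker levels of 28.6%, 36.8% and 60.9%, so their Notch4 is given without a reading. Notch4 was found in 35.4% of normal and 25.0% of fibrotic cDC1-like cells as sequenced (median depths 10066 and 9493 UMIs), but in 1.01% and 1.67% after thinning, where lymphoid cells gave 1.07% and 1.23%, so the share of cells was not above background at 1000 UMIs.

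Notch2, the receptor of bile ducts and of marginal-zone B cells, was low in endothelium and higher in leukocytes and ducts. In the normal library Neutrophil-like (1.43 [1.15, 1.77]), cDC1-like (1.13 [0.931, 1.36]), B-cell-like (1.05 [0.902, 1.21]) and Monocyte/macrophage-like cells (1.02 [0.827, 1.24]) led, each overlapping the next. In fibrosis cDC1-like (2.03 [1.68, 2.44]), B-cell-like (1.81 [1.55, 2.10]) and cDC2-like cells (1.70 [1.41, 2.04]) led, again overlapping. Cholangiocyte-like cells held 0.762 [0.669, 0.866] and 1.12 [0.967, 1.28]. The 4 endothelial classes lay between 0.0601 and 0.0665 in the normal library and between 0.106 and 0.165 in fibrosis. None of these was above the Erythroid-like levels of 0.0883 and 0.260, the latter in a class with an endothelial marker level of 60.9%, and how much of them is background was not tested.

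Notch3, the receptor of mural cells, reached 0.1 UMIs per 10000 in mesenchymal and pDC-like cells and in no other named class of 50 or more cells. HSC/MF-like cells held 8 UMIs in 3 of 62 cells of the normal library, or 0.182 [0.0784, 0.358], and 92 UMIs in 38 of 119 cells of the fibrosis library, or 0.631 [0.508, 0.774]. After thinning the shares were 3.23% and 4.20% with intervals of 0.393 to 11.2% and 1.38 to 9.53% (median depths 6402 and 11421 UMIs), so a difference in the share of cells was not detectable at equal depth. Fibrotic PF-like cells (portal fibroblasts) stood at 0.516 [0.402, 0.653], overlapping HSC/MF-like cells. In pDC-like cells the level was 0.285 [0.208, 0.381] in the normal library and 0.200 [0.130, 0.292] in fibrosis, with Notch3 in 38 of 197 and 22 of 163 cells. Lymphoid cells held 0.00340 and 0.0344, and among named normal classes of 50 or more cells the pDC-like level was the highest, with an interval that overlapped that of HSC/MF-like cells. The 44 normal PF-like cells held 6 UMIs, or 0.169 [0.0619, 0.367], and the 44 normal Mesothelial-like cells none. Mesenchymal clusters kept outside the named classes, most of whose cells were in clusters led by leukocyte or cell-cycle genes, held 0.386 [0.271, 0.535] in 58 normal and 0.300 [0.257, 0.349] in 189 fibrotic cells (of these, 32 and 64 cells lay in clusters that took the Monocyte/macrophage-like name), and fibrotic mesenchymal cells with endothelial markers held 0.471 [0.401, 0.550] in 132 cells.

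**Figure D2:**
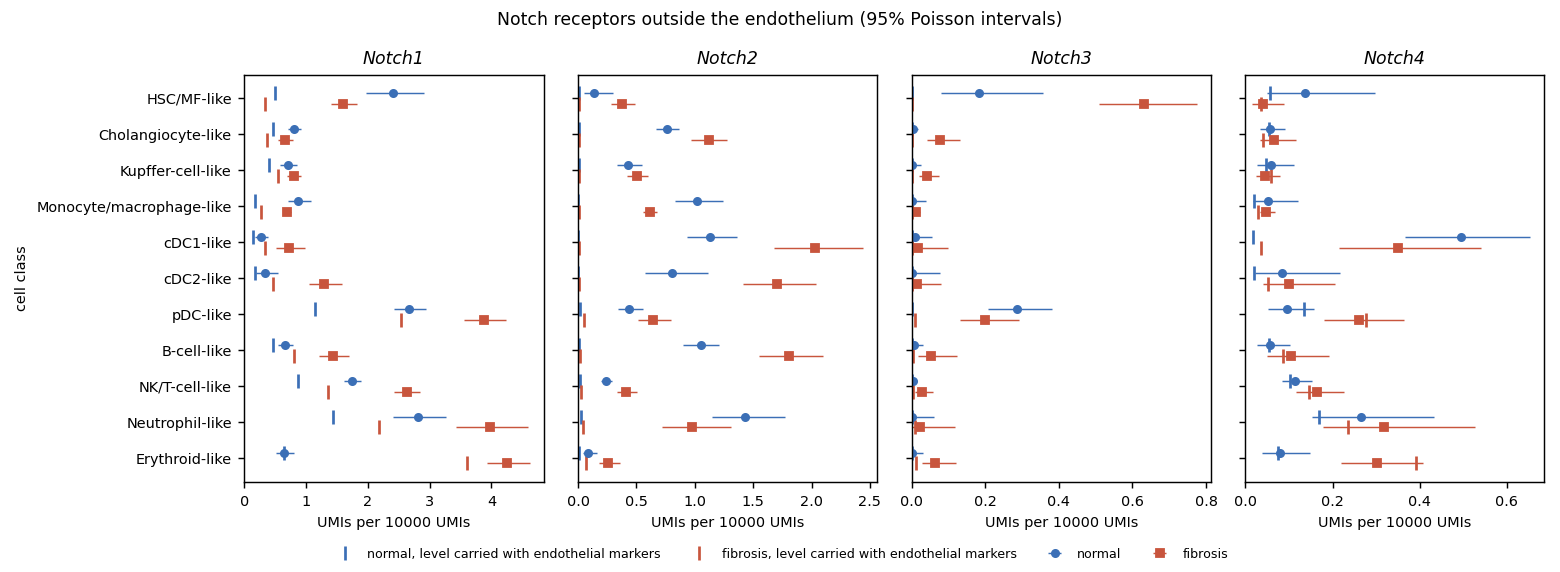
Levels of the Notch receptors in classes outside the endothelium (UMIs per 10000 UMIs, linear axis from 0), as points per library with 95% Poisson intervals. Short upright marks give the endothelial level of the receptor scaled down to the endothelial markers of the class. Notch3 peaks in fibrotic HSC/MF-like cells at 0.631, Notch4 in cDC1-like cells at 0.495 and 0.350, and Notch2 in leukocytes and cholangiocytes. PF-like cells are not drawn.

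Hes1, the most general Notch target and a repressor of differentiation, was highest in Cholangiocyte-like cells, with 11.1 [10.8, 11.5] in the normal library and 8.57 [8.15, 9.01] in fibrosis. Portal vessel-like cells followed at 6.56 [6.24, 6.89] and 4.21 [3.94, 4.49], then, in the normal library, HSC/MF-like cells at 5.74 [5.06, 6.50] and zone 1-like cells at 5.57 [5.25, 5.91], which overlapped. In both libraries the endothelial order ran from the portal to the central side, with 3.62 [3.47, 3.77] and 3.08 [2.85, 3.33] in zone 2/3-like and 2.75 [2.45, 3.09] and 1.87 [1.69, 2.06] in central vein-like cells. The fibrotic portal vessel-like and zone 1-like levels (4.21 and 4.20) could not be separated. Zone 1-like exceeded zone 2/3-like cells 1.54-fold [1.43, 1.66] in the normal library and 1.36-fold [1.23, 1.51] in fibrosis, a smaller step than that of Dll4. Erythroid-like cells held 0.722 and 2.61.

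Hey1, a target linked to arterial endothelium, was highest in portal vessel-like cells, with 0.349 [0.279, 0.433] and 0.340 [0.267, 0.427], in 17.7% and 14.0% of cells as sequenced and 3.14% and 2.93% after thinning. Lymphoid cells held 0.0170 and 0.0845, with thinned shares of 0.251% and 0.850%. Among them, B-cell-like Hey1 went from 0.00560 [0.000142, 0.0312] to 0.126 [0.0652, 0.220], which met the 2-fold rule given below. The ratio was 22.5, and 5.66 without the 3 cells with most UMIs. The fibrotic lymphoid level of Hey1 is therefore a doubtful background. Kupffer-cell-like cells (resident macrophages) came second at 0.163 [0.106, 0.241] and 0.245 [0.189, 0.312], the latter overlapping the portal vessel-like interval, although after thinning only 4 of 211 and 3 of 255 of these cells had a Hey1 UMI. Zone 2/3-like cells had 9 and 10 Hey1 UMIs, or 0.0149 and 0.0491. Both levels were under the lymphoid level of their library and rest on few UMIs, so no fold between these classes is given.

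**Figure D3:**
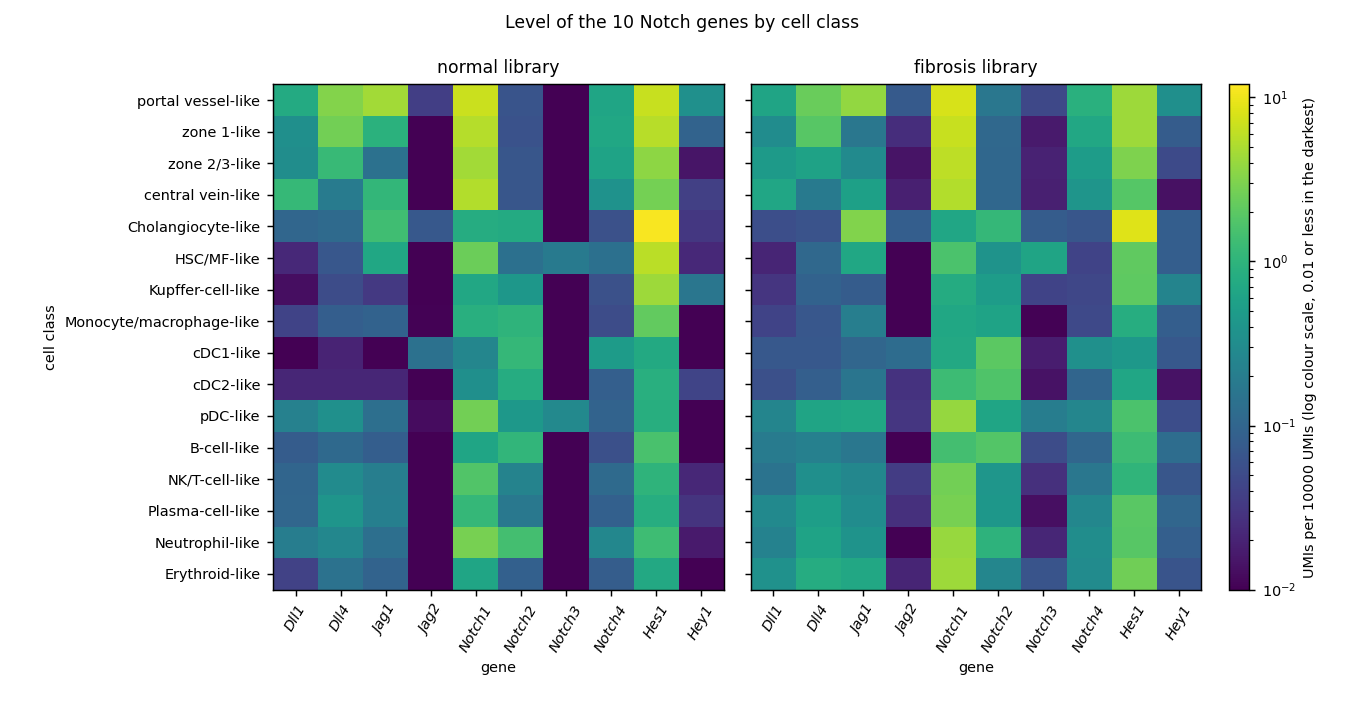
Colour map of the level of each of the 10 genes (columns) in each cell class (lines of the map) for the normal and the fibrosis library, in UMIs per 10000 UMIs on a log colour scale whose darkest colour is 0.01 or less. Dll4, Jag1 and Notch1 are brightest in portal vessel-like cells, Hes1 is brightest in Cholangiocyte-like cells at 11.1 and 8.57, and Jag2 is dark nearly everywhere.

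Cells in which a UMI of both Dll4 and Jag1 was found were most frequent at the portal side. They made up 243 of 350 normal portal vessel-like cells (69.4%, exact binomial interval 64.3 to 74.2%) and 132 of 343 fibrotic ones (38.5%, 33.3 to 43.9%), against 16 of 1593 normal and 8 of 1071 fibrotic lymphoid cells. The share was 24.3% in normal and 10.7% in fibrotic zone 1-like cells and between 3.00% and 6.75% in zone 2/3-like and central vein-like cells of either library. These shares depend on depth, which was 6723 and 6455 UMIs per cell in the portal vessel-like classes (medians), and 100 of the fibrotic portal cells had a median of 2125.5 UMIs. At 1000 UMIs per cell the portal share was 8.29% (5.62 to 11.7%) in the normal library and 3.81% (2.05 to 6.43%) in fibrosis, with 0.0629% and 0 of 1059 in lymphoid cells. It was 3.19% (1.60 to 5.63%) in normal zone 1-like cells, 1 of 934 in normal zone 2/3-like cells and 0 in the other 4 of these endothelial groups. The fibrotic portal class was made of 3 sub-clusters with different Jag1 levels. The one of 67 cells led by Col8a1, Npr3 and Cyp1a1, with Sema3g and Gja5 among its top genes, had 8.28 [7.53, 9.09], the one of 176 cells led by Igfbp5 had 2.16 [1.92, 2.41] and the shallow, erythroid-led one of 100 cells had 3.84 [3.07, 4.74]. Their Dll4 levels were 2.33 [1.94, 2.77], 2.61 [2.35, 2.89] and 0.983 [0.616, 1.49]. The normal portal class was a single sub-cluster.

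**Figure D4:**
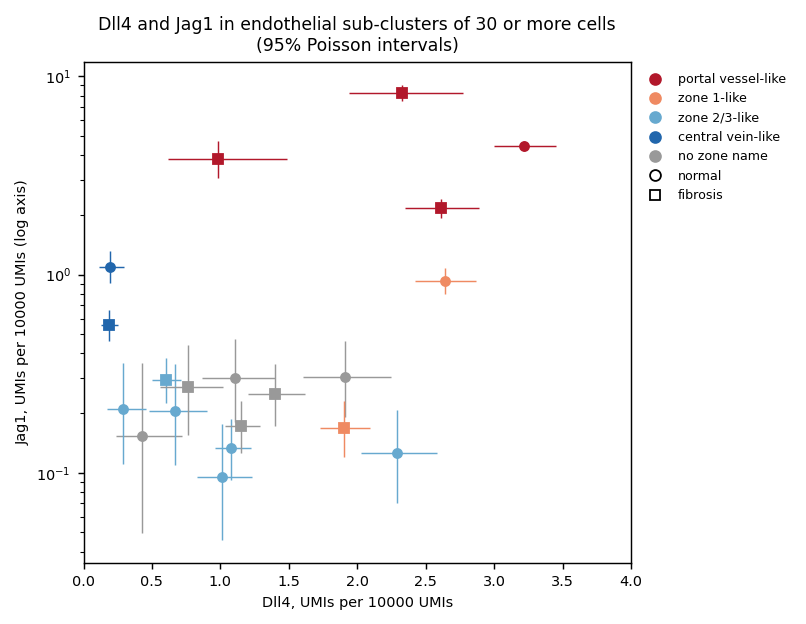
Dll4 level (x axis, linear) against Jag1 level (y axis, log scale) in the endothelial sub-clusters of 30 or more cells, both in UMIs per 10000 UMIs with 95% Poisson intervals, one symbol per sub-cluster, coloured by class and shaped by library. Portal sub-clusters lie at the top, from 2.16 to 8.28 for Jag1, and a zone 2/3-like sub-cluster of 181 normal cells lies at a Dll4 level of 2.29 with Jag1 at 0.126.

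Zone 1-like and zone 2/3-like sinusoidal cells were compared within each library to ask how the pathway varied along the sinusoid. The 586 normal and 496 fibrotic endothelial cells without a zone name are outside this comparison. In fibrosis they include sub-clusters of 254 and 199 cells with intermediate Dll4 levels of 1.15 [1.03, 1.29] and 1.40 [1.20, 1.62]. A gene was counted when its ratio was past 2 either way with an interval leaving out 1, among genes at 0.1 UMIs per 10000 or more in either class. In the normal library 2.54% of 9297 genes met this rule, and 2 of the 6 Notch genes at that level did, Dll4 and Jag1 (6.63-fold [5.10, 8.67] for Jag1, whose zone 2/3-like level was at background, so that the size of its fold is uncertain). In the fibrosis library 1.34% of 9048 genes met it, and 1 of 7 Notch genes did, Dll4, while Jag1 was lower in zone 1-like cells (0.571 [0.373, 0.866]) from 40 and 60 UMIs. Hey1, with 19 and 9 UMIs in the normal classes, stayed under the level limit. The counts changed with the filter, the clustering, the naming, the scale and the fold, and the ratio for Dll4 ranged from 1.81 to 3.48 in the normal library and from 1.71 to 8.04 in fibrosis over the alternatives. Joining portal vessel-like to zone 1-like cells raised the normal Jag1 ratio to 20.3, and leaving only cells under 5% mitochondrial UMIs lowered it to 2.67.

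Between the libraries, the same counting rule was applied in every named class with 50 or more cells in both. The 7 classes of endothelium, mesenchyme, resident macrophages and ducts come first. In them the median ratio over all genes counted lay between 1.0 and 1.07, and that over the Notch genes at the level limit between 0.794 and 1.33. In zone 1-like cells 11.8% of 9473 genes met the rule and 1 of 7 Notch genes did, in zone 2/3-like cells 10.8% of 9409 and 1 of 7, in portal vessel-like cells 13.5% of 9679 and 1 of 8, and in central vein-like cells 18.0% of 9795 and 0 of 7. In HSC/MF-like cells 14.4% of 10005 genes met it and 3 of 7 Notch genes did, in Kupffer-cell-like cells 11.4% of 9125 and 1 of 4, and in Cholangiocyte-like cells 9.55% of 10603 and 1 of 6. The endothelial, Kupffer-cell-like and Cholangiocyte-like counts are at most 1 gene each and do not set the Notch genes apart from other genes, and the 3 of 7 in HSC/MF-like cells rest on few UMIs in the normal library for Notch2 and Notch3. Without the erythroid-led portal sub-cluster the portal vessel-like count was again 1, and the ratios were 0.786 for Dll4, 0.863 for Jag1, 0.875 for Dll1, 1.18 for Notch1, 2.46 for Notch2, 1.41 for Notch4, 0.665 for Hes1 and 1.01 for Hey1.

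The other 9 classes were all leukocytes or red cells. The shares there were 21.3% of genes and 3 of 8 Notch genes in B-cell-like, 16.5% and 0 of 7 in NK/T-cell-like, 40.5% and 5 of 8 in Plasma-cell-like and 17.7% and 2 of 8 in pDC-like cells. The Plasma-cell-like classes were unlike, with median depths of 12103 normal and 1351.5 fibrotic UMIs per cell. The top genes of the fibrotic cluster also held Ebf1, a B-cell-like marker, with Vpreb3 and Pou2af1. They were 15.4% and 2 of 6 in cDC1-like, 24.6% and 3 of 5 in cDC2-like (type 2 conventional dendritic), 20.7% and 2 of 4 in Monocyte/macrophage-like and 19.8% and 2 of 7 in Neutrophil-like cells. In Erythroid-like cells 87.1% of genes met it, as did all 7 of 7 Notch genes, with a median ratio over all genes of 4.15. All of these Notch genes were higher in fibrosis except Hes1 in Monocyte/macrophage-like cells. The Jag1 counts in dendritic cells were small, with 6 fibrotic against 0 normal UMIs in cDC1-like and 11 against 1 in cDC2-like cells. The endothelial marker level was also higher in fibrosis in each of the 9, from 9.04% to 13.4% in B-cell-like, 17.2% to 23.0% in NK/T-cell-like, 19.0% to 41.5% in Plasma-cell-like, 22.7% to 43.0% in pDC-like, 28.6% to 36.8% in Neutrophil-like and 12.7% to 60.9% in Erythroid-like cells, and from between 2.89% and 3.55% to between 4.50% and 7.94% in the other 3. Its part in these ratios was not tested.

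**Figure D5:**
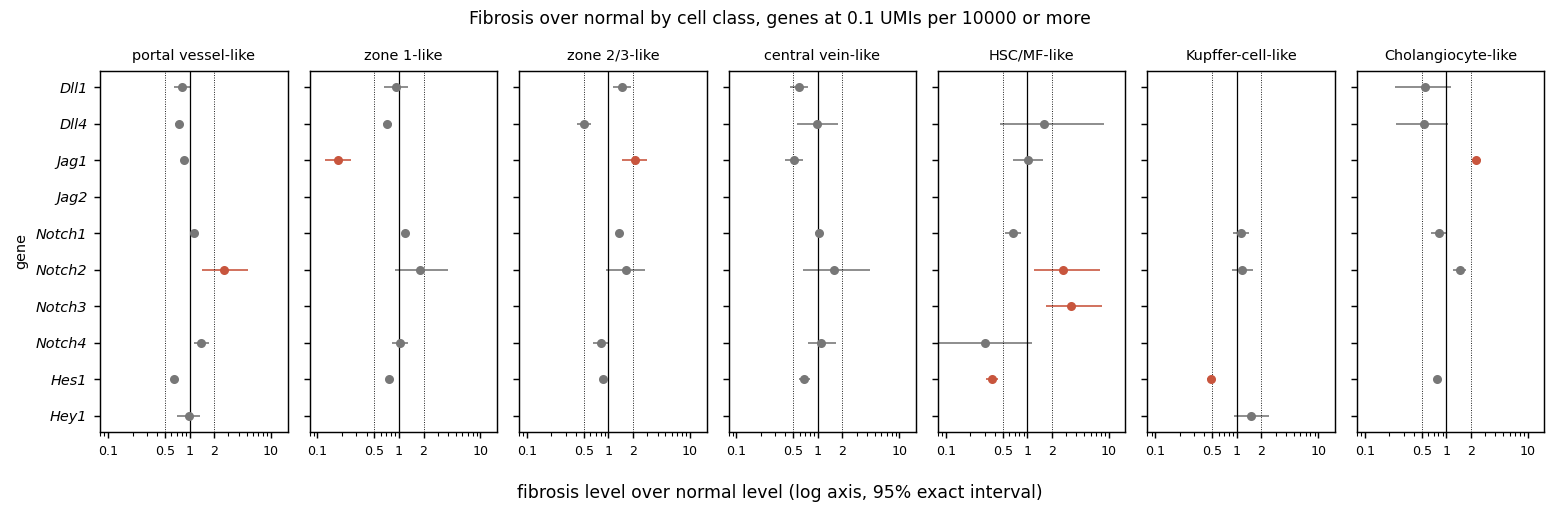
Ratio of the fibrosis to the normal level (x axis, log scale) for each Notch gene at 0.1 UMIs per 10000 or more, in the 7 classes of endothelium, mesenchyme, Kupffer-like cells and ducts, with exact 95% intervals, 1 animal per condition, dotted lines at 0.5 and 2, and red points for genes that met the rule. Jag1 is lowest in zone 1-like cells at 0.180, where other clustering gave up to 1.13, and highest in Cholangiocyte-like cells at 2.34, and the Hes1 ratios are all below 1 on this scale but not per cell.

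Among the ligands, Jag1 was 0.180-fold [0.125, 0.255] in fibrotic zone 1-like cells, 2.10-fold [1.48, 2.95] in zone 2/3-like cells and 2.34-fold [2.06, 2.66] in Cholangiocyte-like cells. The zone 1-like classes shared Msr1, Tox2 and Galnt15 among their top genes but differed in make-up. Slc45a4 and Cdkn1c, top genes of the normal class, were also top genes of a fibrotic portal vessel-like sub-cluster (176 cells, Jag1 2.16). Chst2 and Rnd3, top genes of the fibrotic class, were also top genes of a normal zone 2/3-like sub-cluster (181 cells, Jag1 0.126). The zone 1-like ratio depended on the filter and the clustering. It was 0.674 with portal vessel-like cells joined to zone 1-like cells, 0.679 with the cells of the top 5% of Scrublet scores left out, 0.917 with cells under 5% mitochondrial UMIs only and 1.13 with 1000 variable genes. The zone 2/3-like ratio ran from 1.11 to 4.41 and lies between 2 levels near background. The Cholangiocyte-like ratio held in all 15 alternatives, from 2.32 to 3.51, with 423 UMIs in 234 normal and 571 UMIs in 90 fibrotic cells and thinned shares of 7.69% (4.62 to 11.9%) and 28.9% (19.8 to 39.4%).

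Dll4 had lower relative levels in fibrotic portal vessel-like (0.737 [0.658, 0.825]), zone 1-like (0.721 [0.635, 0.819]) and zone 2/3-like cells (0.505 [0.414, 0.613]), all short of the 2-fold rule. The zone 1-like and zone 2/3-like ratios set classes of different make-up side by side, as given above. The zone 2/3-like ratio ran from 0.236 with 1000 variable genes to 1.02 with naming by mean fold. The zone 1-like direction depends on the scale, because fibrotic zone 1-like cells held more UMIs each and Dll4 UMIs per cell gave a ratio of 1.14. Dll1 was 0.584 [0.456, 0.751] in central vein-like cells, where Jag1 was 0.509 [0.391, 0.663]. Neither met the rule, and per cell they were 0.876 and 0.763. A pDC-like ratio of 5.08 [3.13, 8.62] for Jag1, chosen here after its value was seen, rested on 88 against 21 UMIs with up to 17 in a single cell, in a class whose endothelial marker level went from 22.7% to 43.0%.

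Among the receptors, Notch3 was 3.47-fold [1.69, 8.28] and Notch2 2.77-fold [1.19, 7.87] higher in fibrotic HSC/MF-like cells. The HSC/MF-like markers were raised over other cells for 20 of 21 genes in the normal library and 21 of 21 in fibrosis. Against other mesenchymal cells, however, immune genes led the normal cluster, with Ighm, Ccl4, Ccl5, Il2rb and Gimap3 among its top 10. Of the genes on the marker lists its top 10 held 1 HSC/MF-like marker, Robo2, and 1 NK/T-cell-like marker, Ccl5. The normal side of both comparisons was small, with 8 and 6 UMIs in 62 cells, and 1 fibrotic cell held 23 of the 92 Notch3 UMIs. In the mesenchymal clusters kept outside the named classes the Notch3 ratio was 0.777 [0.539, 1.15], so the higher level applies to the cells named HSC/MF-like, and the part of the naming in it was not tested. The endothelial marker level of those clusters was 59.1% and 20.5%. The Notch3 ratio stayed between 3.06 and 5.99 in 13 alternatives and that of Notch2 between 2.24 and 4.78 in 12. Notch1 was lower in the same class (0.667 [0.528, 0.847], but 1.15 per cell), whereas in endothelial cells as a whole it was 1.17-fold [1.14, 1.21]. Notch2 was 2.65-fold [1.42, 5.21] in portal vessel-like cells, from 15 and 36 UMIs, and ran from 1.82 to 3.88 over the alternatives, but neither level (0.0624 and 0.165) was above that of Erythroid-like cells.

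For the targets, Hes1 had a ratio below 1 on the relative scale in all 7 classes of endothelium, mesenchyme, Kupffer-cell-like cells and ducts. It was 0.371 [0.313, 0.440] in HSC/MF-like and 0.487 [0.434, 0.546] in Kupffer-cell-like cells, and between 0.642 and 0.852 in the 4 endothelial classes and Cholangiocyte-like cells. The HSC/MF-like ratio rests on the normal cluster led by immune genes, as given above. Over the alternatives the HSC/MF-like ratio ran from 0.280 to 0.640 and the Kupffer-cell-like ratio from 0.402 to 0.698. In UMIs per cell the ratio was 0.640, 0.698 and 0.593 in HSC/MF-like, Kupffer-cell-like and portal vessel-like cells, but 1.19, 1.06, 1.02 and 1.15 in zone 1-like, zone 2/3-like, central vein-like and Cholangiocyte-like cells, so the direction in those 4 depends on the scale. Thinned to 1000 UMIs, Hes1 was found in 33.9% (22.3 to 47.0%) of normal and 19.3% (12.7 to 27.6%) of fibrotic HSC/MF-like cells and in 33.2% (26.9 to 40.0%) and 23.5% (18.5 to 29.2%) of Kupffer-cell-like cells. In the mesenchymal clusters outside the named classes the Hes1 ratio was 0.503 [0.447, 0.566], but 0.932 per cell, with endothelial marker levels of 59.1% and 20.5%. Among the leukocyte and red-cell classes the direction was not shared. The Monocyte/macrophage-like class differed in make-up between the libraries. In the normal library it joined 117 cells with Ace and F13a1 and 56 cells with Cx3cr1 among their top genes. The 547 fibrotic cells included 155 with Gpnmb among their top genes and 159 led by Ifnb1. Hes1 was lower in fibrotic Monocyte/macrophage-like cells (0.379 [0.322, 0.446], but 1.19 with naming by mean fold) and cDC1-like cells (0.586 [0.357, 0.933], from 25 and 74 UMIs) and higher in pDC-like (1.89 [1.51, 2.36]), Plasma-cell-like (2.37 [1.84, 3.05], but 0.569 per cell), Neutrophil-like (1.44 [1.05, 1.97]) and Erythroid-like cells (3.62 [2.86, 4.60]), the last 4 being the classes with the highest endothelial marker levels in fibrosis. Hey1 ratios in portal vessel-like (0.973 [0.702, 1.35]) and Kupffer-cell-like cells (1.5 [0.933, 2.48]) had intervals that included 1.

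The other 43 listed genes of the pathway were read by the same rule, and in each of the 7 classes the share of them that met it was under the share over all genes given above. In zone 1-like cells 3 of 29 at sufficient level were higher in fibrosis and 0 lower, namely the Fringe enzyme Lfng at 2.12-fold [1.41, 3.26] and the gamma-secretase subunits Aph1b at 2.55-fold [1.59, 4.23] and Aph1c at 7.27-fold [2.23, 37.5]. Aph1b and Aph1c are near-identical copies, so the split of reads between them is uncertain. Aph1b was also higher in zone 2/3-like (2.36-fold), portal vessel-like (2.87-fold), Kupffer-cell-like (2.05-fold) and Cholangiocyte-like cells (3.16-fold). Of the remaining classes, portal vessel-like cells had 2 of 29 higher (Aph1b and Aph1c, the latter from 2 and 22 UMIs), and zone 2/3-like cells 1 of 28 higher and 1 lower (Dtx2, a ubiquitin ligase, 0.489 [0.249, 0.885]). Central vein-like cells had 0 of 29 higher and 1 lower (Dtx3, another of that family, 0.419 [0.266, 0.658]) and Cholangiocyte-like cells 2 of 31 higher (Aph1b, and Neurl1b, a ligase for ligand uptake, 2.04 [1.35, 3.08]). Kupffer-cell-like cells had 2 of 29 higher (Aph1b, and Aph1c at 3.61-fold) and 1 lower (Hes7 at 0.361, from 16 and 10 UMIs). In HSC/MF-like cells 1 of 31 was higher, Heyl, a Hey-family target, at 0.522 [0.331, 0.784] and 1.12 [0.959, 1.31] (2.15-fold [1.39, 3.49]).

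Along the sinusoid 1 of 28 of these genes met the rule in the normal library. It was Lfng, at 0.229 in portal vessel-like, 0.170 in zone 1-like, 0.867 in zone 2/3-like and 1.82 in central vein-like cells, which gave a zone 1-like to zone 2/3-like ratio of 0.196 [0.134, 0.278]. In fibrosis the Lfng levels were 0.40, 0.361, 0.712 and 1.17, and the 2 of 29 genes that met the rule were Nrarp, a feedback target of Notch, at 2.49-fold [1.91, 3.27], and Dtx3 at 2.18-fold [1.62, 2.98], both higher in zone 1-like cells. Nrarp was highest in portal vessel-like cells, at 2.30 [2.11, 2.50] and 1.47 [1.31, 1.64].

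Genes whose level ran most like that of a Notch gene were sought over 34 points (classes of 50 or more cells, both libraries) among 8614 genes, by Pearson's r of log2 levels with 0.1 added. The points share libraries, and several classes hold endothelial markers, so these are descriptions. Dll1 ran with Jam2 (r = 0.961), Tek (0.961) and Nos3 (0.956), Dll4 with Efnb2 (0.963), Cldn5 (0.946) and AC167229.1 (0.942), and Notch1 with Snrk (0.961), Esam (0.954) and Acer2 (0.95), and Efnb2 is one of the zone 1 markers used for naming. Notch4 ran with Gpr4 (0.956), Timeless (0.897) and Clec1a (0.885). Jag1 had lower values, with Ptpn14 (0.860), Agrn (0.853) and Kank1 (0.841), as did Notch2 with Map3k5 (0.872), H3f3a (0.867) and Dapp1 (0.854) and Hes1 with Cpne8 (0.851), Nr2f6 (0.828) and Trim47 (0.825). Notch3 ran with Matn2 (0.916), Adamtsl2 (0.901) and Robo2 (0.879), the last a stellate marker used for naming. Jag2 and Hey1 did not reach 0.5 UMIs per 10000 in any class and were left out.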

How the data were processed

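Per the submitters' processing notes, reads were handled with Cell Ranger 3.0.1 and mm10, and the authors deposited UMI counts per gene and cell as raw counts, 1 table per library. The study's methods state that doublets were excluded with Scrublet, and whether the deposited tables were written before or after that step is not given in the sources used here. From these counts, cells with 10% or more mitochondrial UMIs or 200 or fewer genes were left out. Each library was clustered alone (scanpy 1.11.5, 2000 variable genes without the 53 Notch pathway genes, 10 principal components, 20 neighbours, Leiden resolution 0.8), and endothelial, mesenchymal and myeloid cells were clustered again. A cluster took the class with most markers among its 10 genes of highest fold, with a fallback to the top 50 where at least 2 markers were found. Mesenchymal sub-clusters were matched only to the mesenchymal, endothelial, Kupffer-cell-like and Monocyte/macrophage-like lists and myeloid ones only to myeloid lists, so lymphoid markers could not name them. Details of this naming were settled after the clusters were seen. UMIs were summed per class and divided by the class total times 10000. Exact Poisson, conditional and Clopper-Pearson 95% intervals were used, and no test, since cells are not replicates. The interval step was tested on simulated data. Medians of UMIs per cell are given beside shares, which were also taken after thinning to 1000 UMIs. The 10 genes and all lists were chosen with earlier results of these data known. All 10 genes are named in every class of 50 or more cells that bears on them, other pathway genes only where past 2-fold (their levels in further classes were added after their values were seen), and the 3 genes most like each one. Alternatives changed the cell filter, clustering, naming, doublets, scale, free RNA, single cells and fold. The groups are the 2 libraries labelled Q and F, and fibrosis was compared with normal by class and zone 1-like with zone 2/3-like cells by library.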

Additional observations from a re-analysis of the deposited data

Results flagged for a closer look

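The fibrosis to normal ratios of Jag1 and of Hes1 went in opposite directions in different classes of the same 2 libraries. That of Jag1 was 0.180 in zone 1-like cells, 2.10 in zone 2/3-like cells and 2.34 in Cholangiocyte-like cells, and 5.08 in pDC-like, 7.43 in cDC2-like, 2.25 in Monocyte/macrophage-like, 2.88 in Neutrophil-like and 7.24 in Erythroid-like cells. In cDC1-like cells, with 6 UMIs against 0, the Jag1 ratio was 3.47 when the 0 was taken as 3. That of Hes1 was 0.371 in HSC/MF-like, 0.487 in Kupffer-cell-like and 0.379 in Monocyte/macrophage-like cells, but 2.37 in Plasma-cell-like and 3.62 in Erythroid-like cells. In the leukocyte and red-cell classes the endothelial marker level was also higher in fibrosis, and its part was not tested. In Erythroid-like cells 87.1% of all genes met the rule, with a median ratio of 4.15, so neither gene stands out there. Their median depth was 3437 normal and 1093 fibrotic UMIs per cell. Each ratio was past 2-fold with a counting interval that left out 1, and the difference between the classes was not tested, because there was 1 mouse per condition. The fibrotic zone 1-like (0.168) and normal zone 2/3-like (0.140) Jag1 levels were at or under the lymphoid level, and both classes differed in make-up between the libraries. The Jag1 ratio in zone 1-like cells moved as far as 1.13 when 1000 variable genes were used, and that in zone 2/3-like cells as low as 1.11 when clusters were named by their highest mean fold, while that in Cholangiocyte-like cells stayed between 2.32 and 3.51. Without the 3 cells with most UMIs the Jag1 ratio was 1.11 in cDC2-like cells, where it rested on 11 against 1 UMIs, and 1.74 in cDC1-like cells. The lowest Jag1 ratios over the alternatives were 4.32 in pDC-like, 1.95 in Monocyte/macrophage-like, 2.12 in Neutrophil-like and 3.59 in Erythroid-like cells. The Hes1 ratio reached 1.19 in Monocyte/macrophage-like cells with naming by mean fold, 0.569 in Plasma-cell-like cells per cell and 1.30 in Erythroid-like cells without the top 5% of Scrublet scores, and over the alternatives it went no higher than 0.640 in HSC/MF-like and 0.698 in Kupffer-cell-like cells.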

How the results depend on the processing

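No paired analysis was possible because each condition had 1 library, and for the same reason no replicate could be left out. In the endothelial, HSC/MF-like, Kupffer-cell-like and Cholangiocyte-like classes, 695 recomputed ratios stayed within their counting interval and 147 left it without a change of direction past 2-fold. Of 155 recomputed ratios of genes past 2-fold, 1 changed direction, that of Jag1 between the libraries in zone 1-like cells, which was 1.13 with 1000 variable genes. Of 360 short of 2-fold whose interval left out 1, 22 changed direction, 6 of them in UMIs per cell, and of 328 whose interval included 1, 55 did. Of the levels, 988 stayed within their interval and 175 moved. Of the counts of Notch genes past 2-fold, 102 stayed within 1.5 times and 33 moved further. In zone 1-like cells (1 between the libraries) the count was 2 with no mitochondrial limit, at resolution 0.4, with 1000 variable genes or with naming by mean fold, and 0 without the top 5% of Scrublet scores. In zone 2/3-like cells (1) it was 3 with 1000 variable genes, 2 at resolution 0.4 or a fold of 1.5, and 0 with 20 principal components, cells weighted equally, naming by mean fold or without the top Scrublet scores. In portal vessel-like cells (1) it was 0 without cells under 2000 UMIs and 2 with 20 principal components, without the top Scrublet scores or at a fold of 1.5. In central vein-like cells (0) it was 1 with 20 principal components or naming by mean fold and 2 at a fold of 1.5. In Kupffer-cell-like cells (1) it was 2 with no mitochondrial limit and 0 without cells under 2000 UMIs, per cell, with cells weighted equally or without the 3 cells with most UMIs. In Cholangiocyte-like cells (1) it was 2 per cell, and in HSC/MF-like cells it stayed at 3 or within 1.5 times of it. Between zones of the normal library (2) it was 1 with 1000 variable genes or per cell, and of the fibrosis library (1) it was 2 with 1000 variable genes, naming by mean fold or without the top Scrublet scores, 0 with 20 principal components, and 3 at a fold of 1.5 or with portal vessel-like cells joined to zone 1-like cells. The last setting, and leaving out the erythroid-led fibrotic portal sub-cluster, were chosen after seeing the data. In the 9 leukocyte and red-cell classes 102 counts stayed within 1.5 times and 31 moved further, and 8 of 341 recomputed ratios past 2-fold changed direction. In Plasma-cell-like cells those of Dll1, Notch1, Notch2, Notch4 and Hes1 were 0.676, 0.601, 0.599, 0.717 and 0.569 per cell. The others were Dll4 in Neutrophil-like cells (0.585 under 5% mitochondrial UMIs), Hes1 in Monocyte/macrophage-like cells (1.19 with naming by mean fold) and Notch4 in Erythroid-like cells (0.797 without the top Scrublet scores). The cause of these moves was not tested.

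A mitochondrial limit of 5% left too few cells for many classes, resolution 1.5 and a larger set of variable genes left under 50 normal HSC/MF-like cells, and the lymphoid level was subtracted only for Dll4, Jag1, Jag2, Notch3, Notch4 and Hey1, where levels at or under it gave no ratio. Jag2, Notch3 and Hey1 had few UMIs in most classes, which limits any statement on their share of cells at 1000 UMIs.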
